A study of Danio rerio with 4 samples.

Results

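The SoxF genes are the 3 genes sox7, sox17 and sox18, taken by gene symbol from a list of 36351 genes in 4 single-cell RNA-seq libraries from zebrafish at 26 hours post fertilization (hpf). They code for transcription factors that bind DNA through an HMG box and belong to the subgroup F of the Sox family. In vertebrate embryos SoxF factors act in vessels: sox7 and sox18 work together in setting arterial and venous identity in zebrafish, Sox18 acts in lymphatic development in mouse, and Sox17 is known in mouse for roles in endoderm, arteries and the endothelium that gives rise to blood. A further gene of the same subgroup, sox32, directs endoderm formation in fish. In the GRCz12tu annotation of RefSeq, used here for names and gene order only, sox17 lies on chromosome 7 with LOC141375146 between it and sox32, while sox7 is on chromosome 20 and sox18 on chromosome 23. The identifiers in the files were LL0000029200 for sox7, LL0000029184 for sox17 and LL0000029185 for sox18.

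The cells of a library were GFP-positive and had been sorted out of trunk and tail pieces of Tg(kdrl:GFP) zn1 embryos, in which the promoter of the endothelial receptor gene kdrl drives GFP. This tissue includes the aorta–gonad–mesonephros (AGM) region. There was 1 library per group, all at 26 hpf and all on the Tg(kdrl:GFP) zn1 background. The miR-128 mutant lacks the microRNA genes miR-128-1 and miR-128-2, the csnk1a1 g3UTR and jag1b g3UTR embryos carry CRISPR/Cas9 mutations of the miR-128 binding site in the 3′UTR of csnk1a1 or of jag1b, and WT embryos carry none of these changes. Each library pooled many embryos.

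The files held 9788 cell barcodes for the miR-128 mutant, 9380 for csnk1a1 g3UTR, 11482 for jag1b g3UTR and 12918 for WT, with median depths over kept cells between 5723 and 10518 unique molecular identifiers (UMIs, each counting 1 captured RNA molecule). Cells were placed in classes by fixed marker genes, none of them a SoxF gene, after each cell had been thinned to 3000 UMIs so that all cells entered the gates at the same depth. This gave 37125 gated cells, of which 30987 were endothelial cells (ECs): 3175 arterial, 638 haemogenic, 6559 tip, 18492 venous/lymphatic and 2123 other ECs. The 1509 cells with UMIs of early blood genes such as myb are called nHSPC-like, after the nascent haematopoietic stem and progenitor cells that leave the haemogenic endothelium, and 2308 cells with at most 1 pan-endothelial gene are called outside cells. All 13 pan-endothelial genes were detected in the ECs, whose sum over these genes was 6189 CPM (UMI counts scaled to a common total) in miR-128 mutant cells, 9377 in csnk1a1 g3UTR, 11860 in jag1b g3UTR and 5976 in WT, against 116, 105, 190 and 134 CPM in outside cells of the same libraries in that order. The haemogenic class is thinly evidenced, since 126 of its 177 cells from the miR-128 mutant, 91 of the 140 from csnk1a1 g3UTR, 88 of the 126 from jag1b g3UTR and 144 of the 195 from WT entered it through 1 UMI of gata2b, runx1 or gfi1aa. Between 23 and 51 barcodes were shared by any pair of libraries. The matrices of the g3UTR libraries came from Cell Ranger 6.0.1 and those of the miR-128 mutant and WT from 5.0.0, so genotype and software version cannot be told apart for the g3UTR libraries.

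A level is given as CPM: the UMIs of a gene were added up over a class in a library and divided by all UMIs of that class. A share is the percentage of cells with at least 1 UMI after thinning to 3000 UMIs, which puts all classes and libraries at the same depth. Intervals are 95% exact intervals and cover counting error only. A mean ± SD over the 4 libraries holds the differences between genotypes as well as those between preparations.

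The 3 SoxF genes had separate patterns over the classes. sox7 and sox18 were transcribed throughout the endothelium, sox7 most in tip and arterial ECs and sox18 most in venous/lymphatic ECs, and both were several-fold lower in nHSPC-like cells. sox17 was low in nearly all ECs and highest in the haemogenic and nHSPC-like cells. The label of the set as endothelial factors therefore matches sox7 and sox18 in these data, whereas most ECs had little or no sox17.

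**Figure D1:**
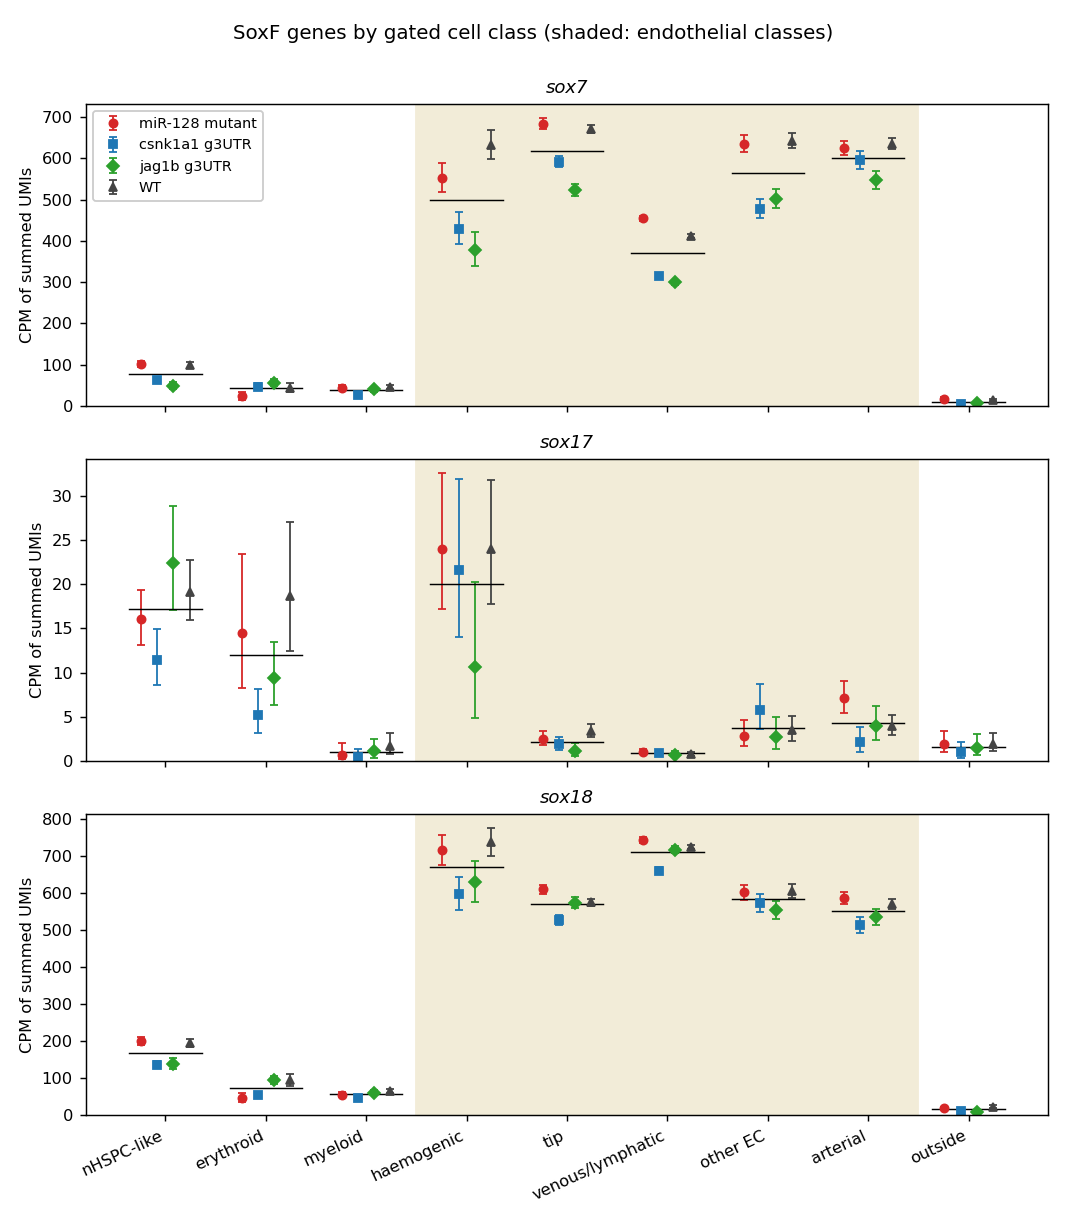
Levels of sox7, sox17 and sox18 in each gated cell class. The y axes give CPM of summed UMIs, points are the 4 libraries with 95% exact Poisson intervals, black lines are means over libraries, and shading marks the endothelial classes. sox7 averages 617 CPM in tip ECs and 370 CPM in venous/lymphatic ECs, sox18 averages 712 CPM in venous/lymphatic ECs and 552 CPM in arterial ECs, and sox17 averages 20.1 CPM in haemogenic ECs and 4.27 CPM in arterial ECs.

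sox7 had 684 CPM in tip ECs of the miR-128 mutant, 591 CPM in csnk1a1 g3UTR, 524 CPM in jag1b g3UTR and 670 CPM in WT. In arterial ECs it had 624, 595, 547 and 636 CPM in the same libraries, so that tip and arterial ECs, at 617 ± 74.8 and 600.5 ± 39.5 CPM (SD, n = 4 libraries each), did not differ beyond the spread between libraries. Other ECs followed with 564 ± 86.6 CPM and haemogenic ECs with 498 ± 116 CPM (SD, n = 4 each), and these neighbours overlapped as well. Venous/lymphatic ECs had the lowest endothelial level of sox7. The sox7 share of cells followed the same order, at 70.18–79.99% of tip ECs, 70.01–75.52% of arterial ECs and 53.4–67.7% of venous/lymphatic ECs, against 1.60–4.37% of outside cells at the same thinned depth. Without thinning, 78.8–91.7% of all ECs and 3.74–9.22% of outside cells had a sox7 UMI, at median depths of 6234–10673.5 UMIs in ECs and 7117.5–11988 UMIs in outside cells.

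sox18 was the most evenly spread of the 3 genes. Venous/lymphatic ECs came first at 712 ± 36.1 CPM, followed by haemogenic ECs at 670 ± 67.2, other ECs at 584 ± 24.7, tip ECs at 572 ± 33.9 and arterial ECs at 552 ± 32.8 CPM (SD, n = 4 libraries each). Each class overlapped with the next in this order. Within every library, though, venous/lymphatic and haemogenic ECs both lay above other, tip and arterial ECs. Its shares were 82.3–85.3% of venous/lymphatic ECs, 77.9–88.1% of haemogenic ECs, 74.3–78.9% of tip ECs and 72.8–78.5% of arterial ECs, against 2.40–5.18% of outside cells. Without thinning, 94.3–97.0% of all ECs had a sox18 UMI, against 5.60–17.1% of outside cells.

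The first comparison asked how the SoxF genes differ between veins or lymphatics and arteries. sox7 had 455 CPM in venous/lymphatic ECs of the miR-128 mutant, 315 CPM in csnk1a1 g3UTR, 299 CPM in jag1b g3UTR and 411 CPM in WT, against 624, 595, 547 and 636 CPM in arterial ECs of these libraries. The ranges did not overlap, and sox7 was 1.60-fold lower in venous/lymphatic ECs (log2 fold change -0.67 ± 0.076 SE, edgeR adjusted p = 4.974e-05). sox18 went the other way. It had 745 CPM in venous/lymphatic ECs of the miR-128 mutant, 661 CPM in csnk1a1 g3UTR, 718 CPM in jag1b g3UTR and 725 CPM in WT, against 587, 514, 537 and 570 CPM in arterial ECs. Again the ranges did not overlap, and sox18 was 1.33-fold higher in venous/lymphatic ECs (log2 fold change 0.41 ± 0.033 SE, edgeR adjusted p = 5.289e-06). sox17 had 0.975, 0.863, 0.686 and 0.733 CPM in venous/lymphatic ECs of the miR-128 mutant, csnk1a1 g3UTR, jag1b g3UTR and WT, against 7.07, 2.10, 3.94 and 3.94 CPM in their arterial ECs, which was 5.03-fold lower (log2 fold change -2.33 ± 0.25 SE, edgeR adjusted p = 3.768e-05). The venous/lymphatic level of sox17 lay at or under the 0.948–1.95 CPM of outside cells and is read as background. The fit was made over all 15896 genes with library as a block, and 27.6% of them passed at an adjusted p of 0.05 as higher and 25.9% as lower in venous/lymphatic ECs, while 14.3% and 13.3% had ranges that did not overlap in these directions, so that a call by itself sets no gene apart. With the library block left out, sox7 (adjusted p = 0.05139) and sox18 (adjusted p = 0.0707) no longer passed, with fold changes of -0.64 and 0.41. Over the 13 alternatives the adjusted p ranged between 2.047e-36 and 0.05139 for sox7, between 6.01e-35 and 0.0707 for sox18 and between 8.433e-20 and 0.00125 for sox17. Muscle transcripts were more abundant in the arterial class, with a summed level of the 3 markers of 82.0, 213, 190 and 55.3 CPM in venous/lymphatic ECs of the miR-128 mutant, csnk1a1 g3UTR, jag1b g3UTR and WT against 253, 484, 962 and 115 CPM in arterial ECs, and their part in the result was not tested.

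Because sox7 and sox18 differed in opposite directions, the ratio of their UMIs separated the classes more clearly than either gene, a summary chosen after the levels had been seen. The ratio of sox18 to sox7 UMIs was 1.64 in venous/lymphatic ECs of the miR-128 mutant (95% interval 1.61 to 1.67), 2.10 in csnk1a1 g3UTR, 2.40 in jag1b g3UTR and 1.76 in WT. In arterial ECs it was 0.940, 0.864, 0.981 and 0.897 in these libraries, and in tip ECs 0.892, 0.893, 1.10 and 0.859. Haemogenic ECs lay between these groups at 1.29, 1.39, 1.67 and 1.17. nHSPC-like cells, at a far lower level of both genes, had 1.98, 2.22, 2.91 and 1.98, and other ECs 0.948, 1.20, 1.10 and 0.944. The 2 genes may differ in how well their 3′ ends are captured, which was not measured, so the ratio compares classes and does not say which protein was more abundant. jag1b g3UTR had the highest ratio in 5 of these 6 classes, and csnk1a1 g3UTR in other ECs.

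**Figure D2:**
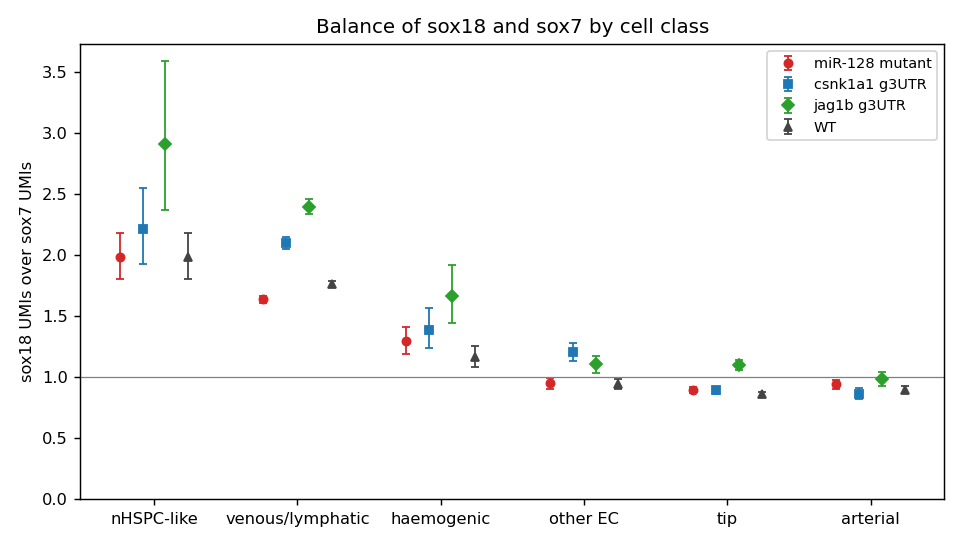
UMIs of sox18 over UMIs of sox7 in 6 cell classes. The y axis is a linear ratio, points are the 4 libraries with 95% exact intervals, and the grey line marks a ratio of 1. Venous/lymphatic ECs lie between 1.64 and 2.40, and arterial ECs between 0.864 and 0.981.

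Cells split along the same line. Venous/lymphatic ECs with sox18 but no sox7 UMI made up 26.6% of the class in the miR-128 mutant library, 37.8% in csnk1a1 g3UTR, 39.4% in jag1b g3UTR and 30.2% in WT, against 18.6%, 18.1%, 21.0% and 18.4% of arterial ECs. Those with sox7 but no sox18 made up 9.08%, 8.83%, 7.44% and 8.54% of venous/lymphatic ECs, against 15.6%, 18.9%, 18.2% and 15.6% of arterial ECs. Over all ECs both genes were detected in 60.0% of cells of the miR-128 mutant, 48.7% of csnk1a1 g3UTR, 48.8% of jag1b g3UTR and 56.9% of WT. These shares were 1.009, 1.005, 1.004 and 1.018 times the product of the single shares. With both genes in most cells this ratio could range only between 0.918 and 1.21, 0.835 and 1.26, 0.8485 and 1.22, and 0.896 and 1.23 in these libraries. No SoxF UMI was seen in 5.388%, 8.199%, 7.533% and 6.70% of the ECs of the miR-128 mutant, csnk1a1 g3UTR, jag1b g3UTR and WT, against 90.9–95.8% of outside cells. UMIs of all 3 genes met in only 0.487%, 0.373%, 0.225% and 0.456% of ECs.

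prox1a, which codes for the transcription factor that marks lymphatic fate, was used to look inside the venous/lymphatic class, a division chosen after the class levels had been seen. Venous/lymphatic cells with a prox1a UMI numbered 157 in miR-128 mutant cells, 132 in csnk1a1 g3UTR, 248 in jag1b g3UTR and 153 in WT. sox18 had 896, 737, 824 and 810 CPM in these cells, against 740, 658, 711 and 723 CPM in venous/lymphatic cells without prox1a, higher in 4 of 4 libraries. sox7 had 473, 315, 303 and 402 CPM in cells with prox1a, against 454, 315, 299 and 411 CPM in cells without it. The sox18 ranges overlapped between libraries and these differences were not tested.

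The second comparison asked which SoxF genes set haemogenic ECs apart from arterial ECs. The gates do not place the cells of either class in the aorta. sox17 had 24.0 CPM in haemogenic ECs of the miR-128 mutant, 21.6 CPM in csnk1a1 g3UTR, 10.7 CPM in jag1b g3UTR and 24.0 CPM in WT, resting on 41, 25, 9 and 48 UMIs. In arterial ECs it had 7.07, 2.10, 3.94 and 3.94 CPM, from 62, 10, 18 and 48 UMIs. Every haemogenic value exceeded every arterial one, and jag1b g3UTR had the lowest haemogenic level. sox17 was 4.79-fold higher in haemogenic ECs (log2 fold change 2.26 ± 0.23 SE, edgeR adjusted p = 1.534e-09), and 54 of the 10992 genes tested had a larger log2 fold change. Of these genes 19.8% passed as higher and 20.9% as lower, and 10.7% had ranges that did not overlap in each direction. The call held in all 13 alternatives, at adjusted p between 1.353e-20 and 0.001818 and log2 fold changes between 1.82 and 2.52.

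The sox17 share was 5.65% of haemogenic ECs in miR-128 mutant cells, 5.71% in csnk1a1 g3UTR, 0.794% in jag1b g3UTR and 6.15% in WT, against 2.41%, 0.354%, 1.33% and 1.69% of arterial ECs and 0.320–0.795% of outside cells. In jag1b g3UTR the haemogenic share, 1 of 126 cells, was below the arterial one and close to that of outside cells. Without thinning the haemogenic shares were 16.4%, 14.3%, 3.97% and 15.9%. Since 1 UMI sufficed to enter the class, the level was also taken by the strength of the evidence, a division chosen after the class levels had been seen. sox17 had 27.9, 17.2, 12.8 and 30 CPM in haemogenic ECs with 2 or more UMIs of the haemogenic genes in the miR-128 mutant, csnk1a1 g3UTR, jag1b g3UTR and WT, against 22.4, 24.0, 9.87 and 21.9 CPM in those with 1 UMI. By gate gene, cells with gata2b, which acts upstream of runx1 in zebrafish haemogenic endothelium, had 12.3–32.1 CPM of sox17. Cells with runx1, the regulator of the endothelial-to-haematopoietic transition (EHT), had 4.22–34.2 CPM, and cells with gfi1aa, a repressor of endothelial genes during EHT, had 17.0–31.9 CPM. Each of these groups had a higher sox17 value than arterial ECs in all 4 libraries, but not beyond counting error for runx1 in jag1b g3UTR. That value, 4.22 CPM (0.51 to 15.2), rested on 2 UMIs, against 3.945 CPM in arterial ECs. A cell with UMIs of more than 1 gate gene counted in each of its groups.

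sox18 was modestly higher in haemogenic than in arterial ECs. It had 716 CPM in haemogenic ECs of the miR-128 mutant, 598 CPM in csnk1a1 g3UTR, 630 CPM in jag1b g3UTR and 738 CPM in WT, against 587, 514, 537 and 570 CPM in arterial ECs (1.21-fold, log2 fold change 0.27 ± 0.063 SE, edgeR adjusted p = 0.0006834). sox7 had 553, 430, 378 and 633 CPM in haemogenic ECs of these libraries, against 624, 595, 547 and 636 CPM in arterial ECs (log2 fold change -0.29 ± 0.075 SE, edgeR adjusted p = 0.002559). In WT the haemogenic level of sox7 was 0.995 times the arterial one, and the lowest ratios, 0.722 and 0.692, were those of csnk1a1 g3UTR and jag1b g3UTR. Without csnk1a1 g3UTR the sox7 change was -0.20 and did not pass (adjusted p = 0.06974), and without the library block neither gene passed (adjusted p = 0.4425 for sox7 and 0.2692 for sox18). sox18 also did not pass with no filter on low counts (log2 fold change 0.14, adjusted p = 0.09999). Over the 13 alternatives the adjusted p ranged between 1.509e-09 and 0.4425 for sox7 and between 0.000425 and 0.2692 for sox18. Stress genes moved with this comparison, with a summed level of 488, 405.5, 445 and 798 CPM in haemogenic ECs of the miR-128 mutant, csnk1a1 g3UTR, jag1b g3UTR and WT against 450, 316, 392 and 442.5 CPM in arterial ECs. So did myeloid markers, at 142.5, 161, 116 and 192 CPM in haemogenic ECs against 37.3, 61.0, 50.9 and 42.1 CPM in arterial ECs, and erythroid markers, at 92.6, 111, 126 and 66.1 CPM against 11.5, 29.6, 34.2 and 8.70 CPM, with 4 of the 8 erythroid genes at 0 in haemogenic ECs of each library. The part of these in the result was not tested.

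**Figure D3:**
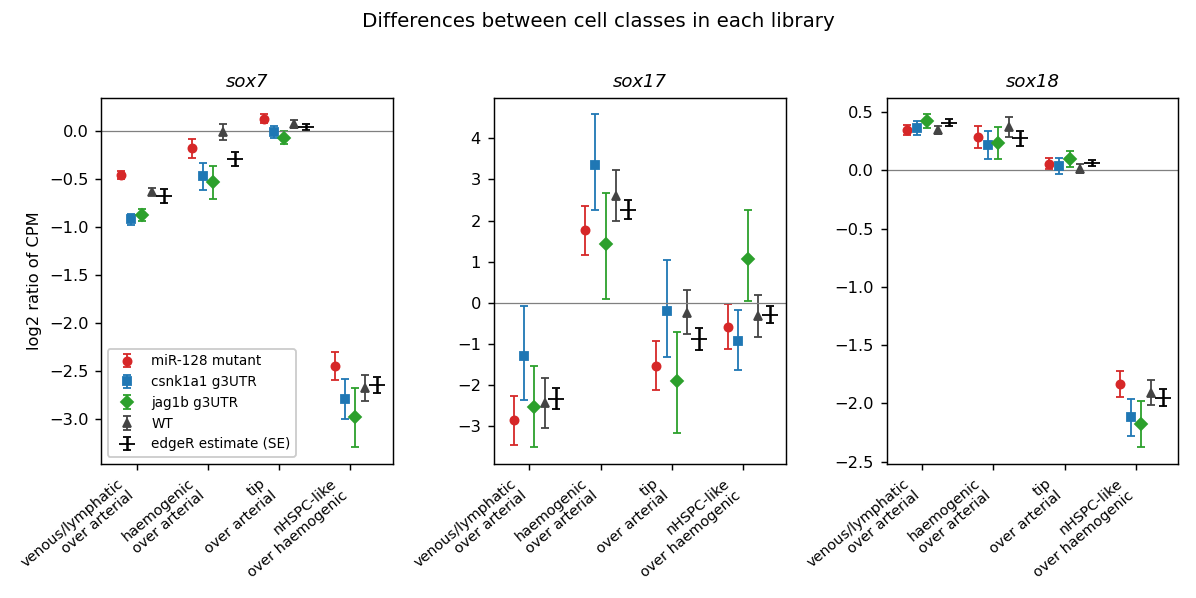
Differences between cell classes for each SoxF gene. The y axes give the log2 ratio of CPM, coloured points are the 4 libraries with 95% exact intervals, black bars are the edgeR estimates with their SE, and the grey line marks no difference. In venous/lymphatic over arterial ECs sox7 lies below the line and sox18 above it in every library, and sox17 stands out in haemogenic over arterial ECs at 2.26.

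Tip cells, which lead growing sprouts, gave no call for sox7 or sox18 against arterial ECs. sox7 had log2 fold changes of 0.05 ± 0.031 (SE, edgeR adjusted p = 0.3305) and sox18 of 0.06 ± 0.026 (SE, edgeR adjusted p = 0.1225) in tip over arterial ECs. Their per-library ratios of tip over arterial were 0.957 to 1.10 for sox7 and 1.01 to 1.07 for sox18. With no filter on low counts both passed as higher, at 0.09 (adjusted p = 0.003806) and 0.11 (adjusted p = 0.0007048), and the alternatives reached adjusted p of 0.9986 for sox7 and 0.9929 for sox18, with 1 of them giving a log2 fold change of -0.012 for sox7. sox17 had 2.45, 1.84, 1.06 and 3.34 CPM in tip ECs of the miR-128 mutant, csnk1a1 g3UTR, jag1b g3UTR and WT, against 7.07, 2.10, 3.94 and 3.94 CPM in arterial ECs. These ranges overlapped, as did those of sox7 and sox18, where 3.22% of genes had ranges apart as higher and 3.85% as lower in tip ECs. The fit gave a 1.84-fold lower level in tip ECs (log2 fold change -0.88 ± 0.26 SE, edgeR adjusted p = 0.02852), where 12.3% of 13906 genes passed as higher and 10.8% as lower. The call was lost without the miR-128 mutant (-0.57, adjusted p = 0.2404) and without jag1b g3UTR (-0.73, adjusted p = 0.08065), with DESeq2 (-0.91, adjusted p = 0.1343) and without the library block (-0.94, adjusted p = 0.4812), in a range over all alternatives of 0.0002547 to 0.4812.

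The last comparison between classes asked what became of the SoxF genes in cells with blood genes. sox7 had 101 CPM in nHSPC-like cells of the miR-128 mutant, 61.9 CPM in csnk1a1 g3UTR, 47.8 CPM in jag1b g3UTR and 98.9 CPM in WT, against 553, 430, 378 and 633 CPM in haemogenic ECs. It was 6.27-fold lower in nHSPC-like cells (log2 fold change -2.65 ± 0.084 SE, edgeR adjusted p = 9.301e-18). sox18 had 201, 137, 139 and 196 CPM in nHSPC-like cells of these libraries, against 716, 598, 630 and 738 CPM in haemogenic ECs, and was 3.86-fold lower (log2 fold change -1.95 ± 0.071 SE, edgeR adjusted p = 9.802e-17). Neither pair of ranges overlapped, and both calls held in the 13 alternatives, up to an adjusted p of 1.036e-05 for sox7 and 5.457e-06 for sox18. sox17 did not follow them. It had 16.0, 11.4, 22.4 and 19.1 CPM in nHSPC-like cells of the miR-128 mutant, csnk1a1 g3UTR, jag1b g3UTR and WT, against 24.0, 21.6, 10.7 and 24.0 CPM in haemogenic ECs (log2 fold change -0.29 ± 0.20 SE, edgeR adjusted p = 0.2294). The miR-128 mutant, csnk1a1 g3UTR and WT had less sox17 in nHSPC-like cells and jag1b g3UTR had more, and without jag1b g3UTR the change was -0.50 and passed (adjusted p = 0.02205, in a range over alternatives up to 0.99). In this fit 31.3% of 10185 genes passed as higher and 31.1% as lower, and 19.6% and 22.4% had ranges that did not overlap. The classes differed in depth, with medians of 15615, 11297, 8265 and 16930 UMIs per nHSPC-like cell against 9021, 7116, 5574 and 9510 per haemogenic EC. They also differed in their gates: haemogenic ECs needed at least 3 pan-endothelial genes and nHSPC-like cells did not, which lowers endothelial genes in nHSPC-like cells. The pan-endothelial gate genes kdrl, cdh5, kdr, egfl7 and tek had log2 fold changes of -2.57, -2.40, -2.215, -2.09 and -1.60. Stress genes differed as well: of 6 tested, 5 were lower and 1 higher in nHSPC-like cells, where 31.1% and 31.3% of all genes passed. Their median log2 fold change was -1.11, against 0.014 over all genes. The part of the gates and of the stress genes in the sox7 and sox18 results was not tested.

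Within the nHSPC-like class sox7 and sox18 were higher in cells with more pan-endothelial genes. The cells were divided by the number of pan-endothelial genes with a UMI after thinning, a division chosen after the class levels had been seen. sox7 had 7.75 CPM in cells of the miR-128 mutant with 0 or 1 such gene, 161 CPM with 2 to 4 and 315 CPM with 5 or more. The same steps gave 3.64, 73.6 and 257 CPM of sox7 in csnk1a1 g3UTR, 12.0, 27.2 and 167 CPM in jag1b g3UTR, and 16.1, 123.5 and 330 CPM in WT. In cells with 0 or 1 pan-endothelial gene sox7 was thus near the level of outside cells, which had 16.9, 4.26, 7.59 and 13.6 CPM in the miR-128 mutant, csnk1a1 g3UTR, jag1b g3UTR and WT. sox18 remained above that background in such cells, with 62.0, 25.8, 42.8 and 67.4 CPM in the miR-128 mutant, csnk1a1 g3UTR, jag1b g3UTR and WT against 19.96, 10.9, 9.905 and 24.1 CPM in outside cells. With 5 or more pan-endothelial genes sox18 reached 539, 483, 367 and 482 CPM. sox17 had 33.6, 14.5, 44.1 and 23.1 CPM with 2 to 4 pan-endothelial genes, against 7.19, 6.55, 13.5 and 15.3 CPM with 0 or 1, a higher value in 4 of 4 libraries with intervals that lay apart in the miR-128 mutant and jag1b g3UTR. With 5 or more it had 15.1, 24.1, 13.1 and 25.6 CPM, below the middle step in those same libraries and above it in csnk1a1 g3UTR and WT. These sox17 values rest on 7 to 63 UMIs each. The median depth was 16656.5, 11688.5, 8518 and 18143 UMIs in cells with 0 or 1 pan-endothelial gene, and 13146, 11370, 8464.5 and 15232 UMIs in those with 5 or more, so the cells with more endothelial genes were not the deeper ones in any library. Whether some of them were an endothelial and a blood cell in 1 droplet was not tested.

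**Figure D4:**
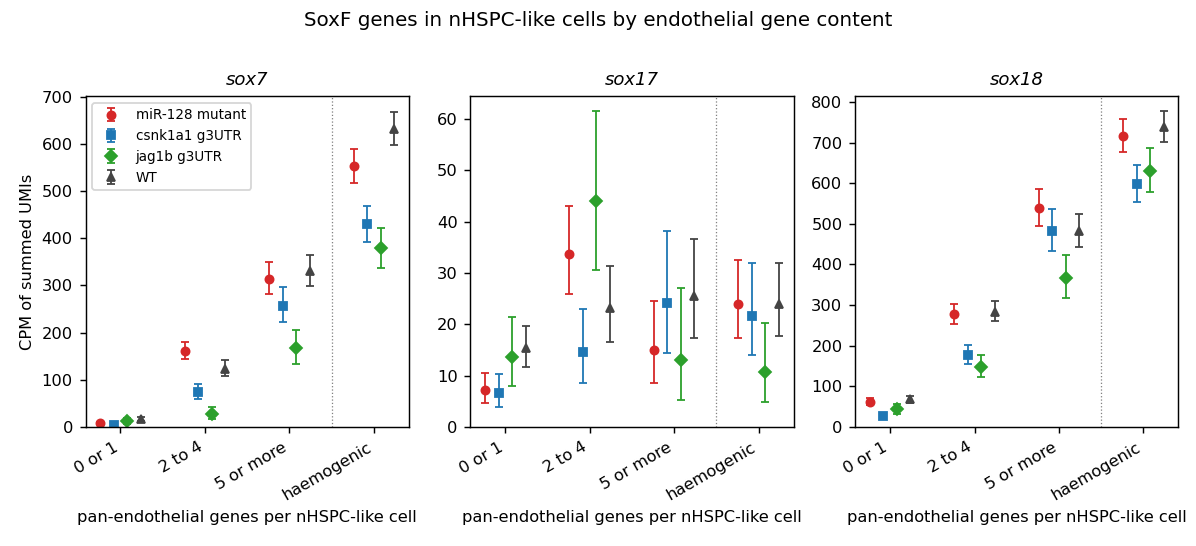
Levels of the SoxF genes in nHSPC-like cells by the number of pan-endothelial genes detected per cell, with haemogenic ECs to the right of the dotted line. The y axes give CPM of summed UMIs, and points are the 4 libraries with 95% exact Poisson intervals. In WT sox7 stands at 16.1, 123.5 and 330 CPM over the 3 steps, and sox17 stands at 15.3, 23.1 and 25.6 CPM.

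sox7 and sox18 also met in the same nHSPC-like cells more than their single shares would give. Both were detected in 15.9% of nHSPC-like cells of the miR-128 mutant, 6.58% of csnk1a1 g3UTR, 5.86% of jag1b g3UTR and 17.9% of WT, which was 2.30, 2.22, 1.87 and 2.15 times the product of the single shares. At these low single shares the ratio could range between 0 and 2.82, 3.76, 3.53 and 2.70, a wider range than in ECs, so the ratios of nHSPC-like cells and ECs are not compared. The product was taken over the whole class, in which both shares rose with the number of pan-endothelial genes. In WT, sox7 and sox18 were found in 4.39% and 16.6% of cells with 0 or 1 such gene, against 57.5% and 74.0% with 5 or more. The part of this mix of cells in the ratios was not tested. No SoxF UMI was seen in 59.0%, 67.3%, 64.5% and 56.4% of nHSPC-like cells.

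nHSPC-like cells were over-represented among the sox17-positive cells, a view added after the class levels had been seen and not tested. In most libraries haemogenic ECs, arterial ECs and erythroid cells were over-represented as well. After thinning 89 cells of the miR-128 mutant, 60 of csnk1a1 g3UTR, 58 of jag1b g3UTR and 107 of WT had a sox17 UMI. nHSPC-like cells made up 25.8%, 21.7%, 25.9% and 17.8% of them, and 4.69%, 4.82%, 3.51% and 3.47% of all gated cells. Venous/lymphatic ECs made up 11.2%, 18.3%, 19.0% and 17.8% of sox17-positive cells and 49.5%, 46.9%, 50.7% and 51.5% of all gated cells. Tip ECs made up 12.4%, 20%, 8.62% and 21.5% of sox17-positive cells and 18.2%, 17.6%, 15.1% and 19.3% of all gated cells. Among nHSPC-like cells, gfi1aa was detected in 7 of 23 sox17-positive cells in the miR-128 mutant library, 5 of 13 for csnk1a1 g3UTR, 8 of 15 for jag1b g3UTR and 4 of 19 for WT. Its share was 30.4%, 38.5%, 53.3% and 21.1% in the positive cells, against 12.8%, 14.9%, 18.2% and 11.5% in the negative ones. runx1 was likewise found in 21.7%, 30.8%, 26.7% and 15.8% of positive cells, against 5.36%, 8.38%, 10.6% and 6.70% of negative cells. gata2b was found in 47.8%, 7.69%, 20% and 15.8% of positive cells, against 9.95%, 8.38%, 4.795% and 10.5% of negative cells, so that it was lower in the positive cells of csnk1a1 g3UTR. The arterial gate genes efnb2a and dll4 were also higher in positive nHSPC-like cells of each library, as were myb and sox32. efnb2a was found in 17.4%, 15.4%, 6.67% and 21.1% of positive cells, against 4.34%, 8.38%, 3.77% and 5.63% of negative cells. flt4 was lower in the positive cells of each library. The pattern was thus not particular to the haemogenic genes. The counts are small and the intervals wide: for gfi1aa in WT the interval was 6.05% to 45.6%.

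sox17 had a UMI in 0.764%, 0.607%, 0.422% and 0.791% of all thinned ECs, against 0.795%, 0.320%, 0.534% and 0.485% of outside cells in the miR-128 mutant, csnk1a1 g3UTR, jag1b g3UTR and WT. The intervals overlapped in each library, so the pooled share does not set ECs apart from background. Haemogenic ECs did stand above it in the miR-128 mutant, csnk1a1 g3UTR and WT, at 5.65%, 5.71% and 6.15%. Among all ECs, in the same order of libraries, myb was found in 12.1%, 12.8%, 6.67% and 8.97% of sox17-positive cells. In sox17-negative ECs it was found in 0.743%, 0.72%, 0.707% and 0.582%. efnb2a was likewise higher and stab1 lower in positive ECs of each library, while dll4 was higher only in jag1b g3UTR. These differences were not tested.

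sox17 was also found in the erythroid class, at 14.5 CPM in miR-128 mutant cells, 5.19 CPM in csnk1a1 g3UTR, 9.43 CPM in jag1b g3UTR and 18.7 CPM in WT, on 16, 19, 30 and 28 UMIs. Erythroid cells with a myb UMI, a division chosen after the levels had been seen, had 32.7, 11.7, 19.9 and 31.8 CPM of sox17 on 9, 10, 13 and 8 UMIs, against 8.42, 3.20, 6.73 and 16.1 CPM on 7, 9, 17 and 20 UMIs in erythroid cells without myb. The intervals of both kinds of cell overlapped in each library, and the difference was not tested. Myeloid cells had 0.675, 0.461, 1.04 and 1.68 CPM, no more than outside cells. sox32, its neighbour, had 6.26, 8.24, 20.5 and 7.86 CPM in nHSPC-like cells, against 7.04, 2.59, 2.37 and 1.002 CPM in haemogenic ECs (log2 fold change 1.51 ± 0.39 SE, edgeR adjusted p = 0.001944). It was higher in nHSPC-like cells in 3 of 4 libraries, the miR-128 mutant being the exception. The haemogenic levels of sox32 rested on very few UMIs, with 12 UMIs from 4 cells in the miR-128 mutant. Haemogenic ECs with 1 UMI of the haemogenic genes had 3, 0 and 1 sox32 UMIs in csnk1a1 g3UTR, jag1b g3UTR and WT. Those with 2 or more had 0, 2 and 1. Over the 36 profiles of 9 classes in 4 libraries the levels of sox17 and sox32 correlated with a Pearson r of 0.738, as log2(CPM + 1). The profiles share libraries and depths, so this is a description, and whether reads of the 2 neighbouring genes were separated in full was not tested.

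Comparisons between genotypes rest on 1 library each, and no test was possible. In all ECs sox7 had 540 CPM in miR-128 mutant cells, 418 CPM in csnk1a1 g3UTR and 382 CPM in jag1b g3UTR, against 514 CPM in WT. The ratios over WT were 1.05 (95% interval 1.04 to 1.06), 0.814 (0.801 to 0.826) and 0.743 (0.731 to 0.756). sox18 had 686 CPM in miR-128 mutant cells, 609.5 CPM in csnk1a1 g3UTR and 660 CPM in jag1b g3UTR, against 667 CPM in WT, which gave ratios of 1.03 (1.02 to 1.04), 0.914 (0.903 to 0.926) and 0.990 (0.977 to 1.003). The miR-128 mutant was close to WT for both genes. The lower levels were those of sox7 in both g3UTR libraries and, to a smaller extent, of sox18 in csnk1a1 g3UTR. None of these ratios passed 1.5-fold, which 6.81% of genes passed as higher and 5.46% as lower in miR-128 mutant cells, 17.3% and 3.42% in csnk1a1 g3UTR, and 35.5% and 5.36% in jag1b g3UTR.

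The g3UTR libraries were shifted as a whole against WT. The median gene of all ECs was at a log2 ratio over WT of 0.002 for the miR-128 mutant, 0.17 for csnk1a1 g3UTR and 0.34 for jag1b g3UTR. kdrl, whose promoter drives the reporter, was 1.17, 2.60 and 3.13 times the WT level in the miR-128 mutant and the csnk1a1 and jag1b g3UTR libraries, and cdh5, the endothelial cadherin, 1.02, 1.55 and 2.43 times. Relative to the median gene sox7 stood at 0.723 times WT in csnk1a1 g3UTR and 0.589 times in jag1b g3UTR, and sox18 at 0.813 and 0.784 times. In these libraries 10.5% and 9.48% of genes had a lower ratio than sox7, and 20.8% and 30.2% a lower one than sox18. The 2 SoxF genes thus did not share the higher CPM of kdrl and cdh5 in these libraries, and the part of the software version, the sort and the genotype cannot be told apart. The sox7 ratio over WT was not the same in all classes. In csnk1a1 g3UTR the sox7 ratio over WT was 0.936 in arterial ECs, 0.882 in tip ECs, 0.765 in venous/lymphatic ECs, 0.679 in haemogenic ECs and 0.626 in nHSPC-like cells. In jag1b g3UTR the same classes had ratios of 0.861, 0.781, 0.728, 0.598 and 0.483. sox18 was likewise lowest in the last 2 of these classes. Its ratios in the same order were 0.901, 0.9165, 0.912, 0.810 and 0.699 in csnk1a1 g3UTR, and 0.941, 0.998, 0.990, 0.854 and 0.709 in jag1b g3UTR. The haemogenic class also differed in its mix of gate genes between these libraries. gata2b was found in 47 of its 140 cells in csnk1a1 g3UTR, 36 of 126 in jag1b g3UTR and 91 of 195 in WT. sox7 had 491, 508 and 716.5 CPM in those cells, against 362, 356 and 588 CPM in haemogenic ECs with runx1. The part of this mix in the ratios was not tested. Nor was the difference between classes, since each value comes from 1 library.

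**Figure D5:**
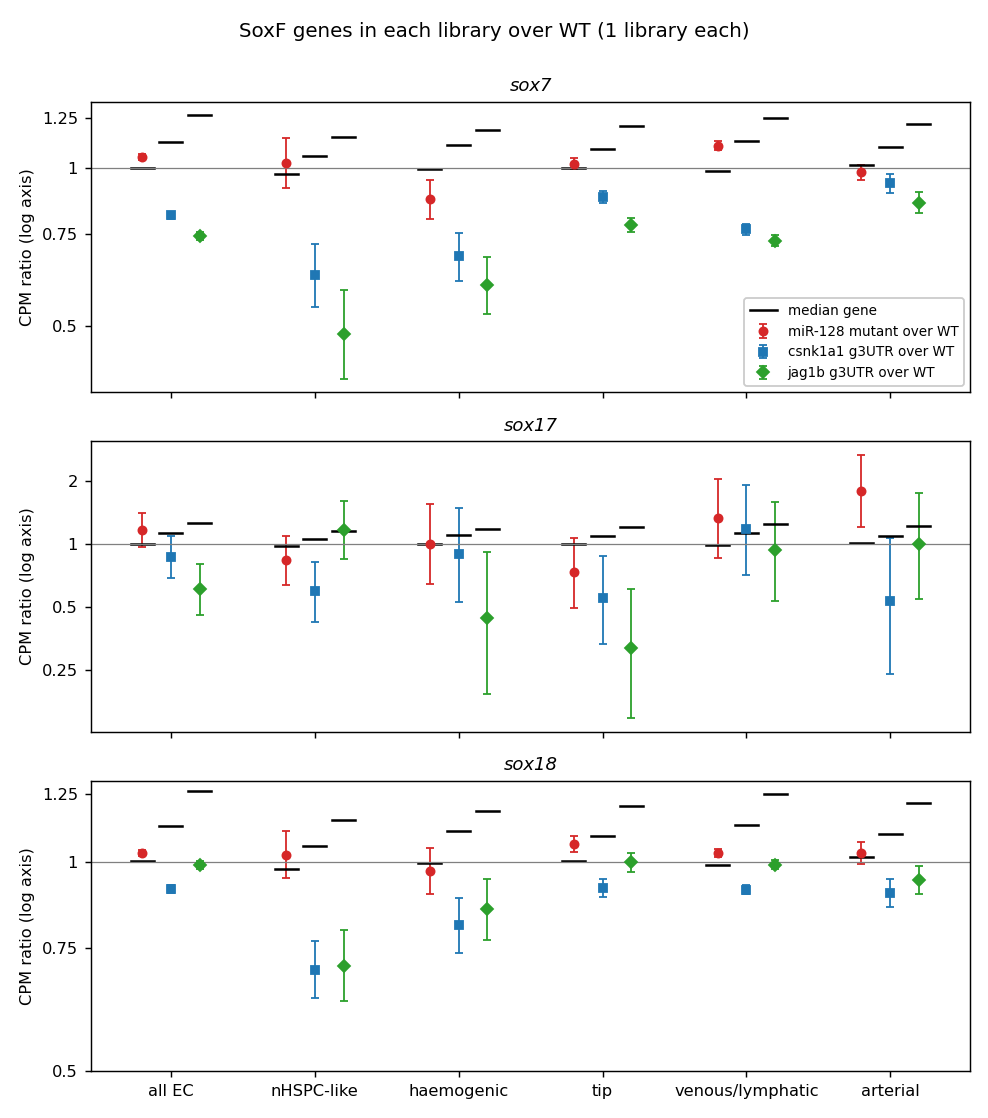
Levels in each mutant library over WT by cell class. The y axes give the ratio of CPM on a log axis, points are ratios with 95% exact intervals covering counting error only, black bars are the median gene of that class, and the grey line marks equality with WT. For sox7 in jag1b g3UTR the ratio is 0.861 in arterial ECs and 0.483 in nHSPC-like cells.

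sox17 gave few UMIs for such ratios. In all ECs it had 205 UMIs (2.64 CPM) in miR-128 mutant cells, 109 (1.97 CPM) in csnk1a1 g3UTR and 68 (1.38 CPM) in jag1b g3UTR, against 256 (2.27 CPM) in WT, for ratios of 1.16 (0.964 to 1.404), 0.870 (0.689 to 1.09) and 0.610 (0.460 to 0.799). In haemogenic ECs the miR-128 mutant had the WT level to within counting error, with a ratio of 0.9997 (0.643 to 1.55), on 41 against 48 UMIs. The interval still allows a difference of 1.5-fold. In arterial ECs the miR-128 mutant had 62 sox17 UMIs against 48 in WT, a ratio of 1.80 (1.21 to 2.67). There 5.47% of genes passed 1.5-fold as higher. In jag1b g3UTR haemogenic ECs the ratio was 0.444 (0.192 to 0.915), on 9 against 48 UMIs, where 6.94% of genes passed 1.5-fold as lower. Tip ECs had 0.318 (0.147 to 0.613) in jag1b g3UTR, on 10 against 86 UMIs, and 0.550 (0.334 to 0.873) in csnk1a1 g3UTR. There 5.42% and 3.29% of genes passed as lower. Arterial ECs of jag1b g3UTR and csnk1a1 g3UTR had 1.002 and 0.534, and venous/lymphatic ECs 0.935 and 1.18, all with intervals that included 1. In nHSPC-like cells the ratios were 0.838 for the miR-128 mutant, 0.596 for csnk1a1 g3UTR and 1.17 for jag1b g3UTR.

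Dividing cells had somewhat lower values of sox7 and sox18 in these libraries. Cells with 2 or more UMIs of the cycling genes were compared with the rest of their class. The sox7 ratio of cycling over non-cycling arterial ECs was 0.916 in miR-128 mutant cells, 0.886 in csnk1a1 g3UTR, 0.963 in jag1b g3UTR and 0.904 in WT, and in venous/lymphatic ECs 0.897, 0.802, 0.883 and 0.807. For sox18 these ratios were 0.837, 0.933, 0.899 and 0.898 in arterial ECs and 0.835, 0.845, 0.964 and 0.831 in venous/lymphatic ECs. All 16 ratios were below 1, although the interval reached 1 for sox7 in arterial ECs of jag1b g3UTR and for sox18 in arterial ECs of csnk1a1 g3UTR and venous/lymphatic ECs of jag1b g3UTR. The ratio of all genes was not taken, so these values have no background. sox17, on 3 to 11 UMIs in cycling cells, had 0.801, 1.04, 3.05 and 1.04 in arterial and 1.35, 1.42, 2.20 and 1.06 in venous/lymphatic ECs. Only the arterial interval of jag1b g3UTR (1.085 to 8.90) excluded 1. These differences were not tested.

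The genes whose levels over the 36 profiles were most like a member are given as a description, since the profiles share libraries, depth and the contrast of endothelium with other cells. For sox7 these were si:dkeyp-97a10.2 (Pearson r = 0.989), myct1a (0.976), limch1b (0.976), sos1 (0.975) and tmem108 (0.972), of 6569 candidates. For sox18 they were again si:dkeyp-97a10.2 (0.983), then plekhg5a (0.976), adcy2b (0.974), thsd1 (0.974) and LOC101882770 (0.973). sox7 and sox18 correlated with each other at 0.977. For sox17 the nearest genes were bmp3 (0.896), shq1 (0.863), dohh (0.858), tmem125 (0.847) and pnn (0.845). bmp3, which codes for a ligand of the BMP family, averaged 70.6 CPM in haemogenic ECs, 41.4 CPM in erythroid cells, 37.0 CPM in nHSPC-like cells, 8.61 CPM in arterial ECs and 1.36 CPM in venous/lymphatic ECs. sox17 correlated with sox7 at 0.094 and with sox18 at 0.153.

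Of the 23 other Sox genes in the annotation, 7 to 10 had enough counts to be tested in a comparison. In venous/lymphatic over arterial ECs 6 of 10 were higher and 2 lower (27.6% and 25.9% of all genes), with sox4b at 3.15 and sox3 at 1.69, and sox5 at -1.55 and sox6 at -0.92 (log2 fold change). The median of the 10 was 0.41, against -0.009 over all genes. In haemogenic over arterial ECs 3 of 7 were higher and 2 lower (19.8% and 20.9% of all genes). sox5 (1.89), sox6 (0.82) and sox4a (0.53) were higher, while sox11a (-1.92) and sox13 (-0.35) were lower. The median was 0.24 against 0.016 over all genes. sox17, at 2.26, was above each of these 7. In tip over arterial ECs 2 of 9 were higher and 3 lower (12.3% and 10.8% of all genes), with sox4a at 0.90 and sox5 at -1.35. In nHSPC-like over haemogenic cells 3 of 9 were higher, namely sox4b (2.56), sox32 (1.51) and sox11a (1.49), and 5 were lower, among them sox6 (-2.65) and sox13 (-1.98), where 31.3% and 31.1% of all genes passed. With so few genes tested, a difference of 1 or 2 genes from these shares is no result about the family.

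Partners of SoxF factors and genes known in fish or mouse vessels to depend on them were followed as a list of 35, of which 12 served as gate genes and are counted apart. Of the other 23, in venous/lymphatic over arterial ECs 9 of 21 were higher and 6 lower, where 27.6% and 25.9% of all genes passed. The count of lower ones is near that share. prox1a (2.76), which Sox18 activates in mouse lymphatic endothelium, and plvapb (1.91), of endothelial fenestrae, were among the higher ones, and the lymphangiogenic ligand vegfc (-5.24) and the tight junction gene cldn5a (-2.75) among the lower ones. The median over the 21 was 0.04 against -0.009 over all genes. In haemogenic over arterial ECs 7 of 19 were higher, led by the flow-responsive klf2b (1.42) and by cldn5a (1.31), and 5 lower, led by the vascular master regulator etv2 (-2.14) and the VEGF receptor flt1 (-1.25), where 19.8% and 20.9% of all genes passed. In tip over arterial ECs 7 of 20 were higher, with klf2b at 0.89 and the guidance receptor robo4 at 0.61, and 5 lower, with cldn5a at -1.23 and tal1 at -1.06, where 12.3% and 10.8% of all genes passed. In nHSPC-like over haemogenic cells 16 of 19 were lower (31.1% of all genes), with a median of -1.36, and the remaining 3, mef2d (-0.30), mef2ca (-0.13) and hhex (-0.06), did not pass. Only the haemogenic gate asked for pan-endothelial genes, so this count of endothelial genes is no result about dependence on SoxF factors. The mef2 genes code for known partners of Sox18 in mouse endothelium. Of the 12 gate genes of the list, 5 were higher and 5 lower in venous/lymphatic over arterial ECs, 2 and 8 in haemogenic over arterial ECs, 8 and 4 in tip over arterial ECs, and 1 and 11 in nHSPC-like over haemogenic cells. Since these genes helped to place the cells, their counts are no result.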

How the data were processed

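Filtered matrices of UMI counts per gene and barcode were deposited by the authors, who had aligned the reads with Cell Ranger to a zebrafish annotation with corrected 3′UTRs. Per the file headers the version was 5.0.0 for the miR-128 mutant and WT and 6.0.1 for both g3UTR libraries, whereas the submitters' processing notes give 5.0.0 only. The genome build is not given in the sources used here. No column belonged to a sample outside the series.

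Cells with at least 200 genes, at most 35000 UMIs and at most 20% mitochondrial UMIs were kept, 41588 in all. The limit of 35000 UMIs was the study's guard against doublets, beside the scatter gates of its sort, and no doublet caller was run. Each cell was thinned without replacement to 3000 UMIs, and the 386, 854, 2331 and 892 shallower cells of the miR-128 mutant, csnk1a1 g3UTR, jag1b g3UTR and WT were left out. Rules were applied in this order. Erythroid or myeloid cells had at least 3 UMIs over 2 genes of their panel, and nHSPC-like cells at least 2 UMIs of myb, ikzf1, ptprc, itga2b, coro1a or lcp1. ECs had at least 3 of 13 pan-endothelial genes. Among ECs, venous/lymphatic cells had at least 2 UMIs of their panel (stab1, stab2, mrc1a, lyve1b, flt4, dab2, nr2f2, ephb4a) and at least 2 times as many as of the arterial one (efnb2a, dll4, dlc, hey2, aqp8a.1, notch1b, cldn5b), haemogenic cells at least 1 UMI of gata2b, runx1 or gfi1aa, tip cells at least 2 of apln, esm1 or angpt2a, and arterial cells the reverse of the venous/lymphatic rule.

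Levels were CPM of summed unthinned UMIs, with exact Poisson intervals, exact Clopper-Pearson intervals for shares and exact conditional binomial intervals for ratios, all at 95%. UMIs count molecules, and the intervals cover counting error only. Classes were compared over the 4 libraries with edgeR 4.0.16 (R 4.3.3): quasi-likelihood tests on summed counts of all genes, TMM, filterByExpr and Benjamini-Hochberg adjustment at 0.05. Library was a block, since the classes of a library are different cells of the same pool of embryos and the same preparation. As the libraries are different genotypes, p-values measure whether a difference recurs over them. DESeq2 1.42.0 was an alternative, as were other thinning depths (2000 and 4500 UMIs), stricter gates, a UMI limit of 20000, no co-marked cells, no filter, no block and each library left out. Python 3.11.15, numpy 2.4.6 and scipy 1.17.1 were used for the rest, and the test was checked on simulated data. Between libraries no test was run, and ratios need at least 20 UMIs in each for the share of genes past 1.5-fold. Named genes were the members, the 5 genes with the highest correlation to each over profiles (20 CPM or more in a class of every library) and the extremes of each list. The members and lists were chosen with earlier results of these data known.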

Additional observations from a re-analysis of the deposited data

Results flagged for a closer look

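sox7 in the miR-128 mutant over WT moved in opposite directions in 2 endothelial classes. It was 1.11 times the WT level in venous/lymphatic ECs (95% interval 1.09 to 1.13, on 20037 against 26918 UMIs) and 0.874 times in haemogenic ECs (0.802 to 0.952, on 943 against 1263 UMIs). By gate gene, sox7 was lower than in WT only in haemogenic ECs with gata2b, at 539 against 716.5 CPM. In those with runx1 it had 628.5 against 588 CPM, and with gfi1aa 542 against 507 CPM, with overlapping intervals. The lower haemogenic level was thus not seen in each of these groups. The mix of gate genes also differed between the libraries. Of 177 cells in the miR-128 mutant, 79 had gata2b, 44 runx1 and 81 gfi1aa, against 91, 72 and 62 of 195 in WT. The part of this mix in the class ratio was not tested. The division by gate gene was chosen after the class levels had been seen. With 1 library per genotype the differences were not tested.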

How the results depend on the processing

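Ratios of a library over WT were recomputed under 7 other settings. In arterial ECs only, sox7 was 0.982 for the miR-128 mutant, 0.936 for csnk1a1 g3UTR and 0.861 for jag1b g3UTR, sox17 was 1.80, 0.534 and 1.002, and sox18 was 0.901 for csnk1a1 g3UTR and 0.941 for jag1b g3UTR. sox7 in the miR-128 mutant and sox17 in jag1b g3UTR thus lay on the other side of 1 than in all ECs. Their intervals, 0.949 to 1.017 and 0.548 to 1.754, included 1, so no turn of direction is shown. With median-of-ratios scaling sox7 was 0.723 for csnk1a1 g3UTR and 0.589 for jag1b g3UTR, and sox18 0.813 and 0.784. As the mean over cells, sox7 in csnk1a1 g3UTR was 0.790. In jag1b g3UTR sox18 was 0.976 at a thinning depth of 4500 UMIs and 0.972 without cells over 20000 UMIs. Shares moved with the thinning depth by construction: at 2000 UMIs sox7, sox17 and sox18 were found in 57.0%, 0.452% and 69.2% of WT ECs, and at 4500 UMIs sox7 and sox18 in 79.4% and 90.4%.

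Without the replicate block (library) the log2 fold changes were -0.64 for sox7 and 0.41 for sox18 in venous/lymphatic over arterial ECs, -0.26 for sox7 and 0.28 for sox18 in haemogenic over arterial ECs, and -0.94 for sox17 in tip over arterial ECs, none of which passed. All genes called higher and lower numbered 2273 and 1966 without the block, against 4386 and 4112 with it, in venous/lymphatic over arterial ECs, 979 and 985 against 2179 and 2301 in haemogenic over arterial ECs, and 124 and 88 against 1717 and 1498 in tip over arterial ECs. DESeq2 called 1291 genes higher in haemogenic over arterial ECs and 732 lower in tip over arterial ECs, and gave -0.91 for sox17 in that contrast, which did not pass. With no filter sox18 was 0.14 in haemogenic over arterial ECs and did not pass, and sox7 and sox18 were 0.091 and 0.11 in tip over arterial ECs and passed. Leaving out 1 library at a time gave -0.39 to -0.20 for sox7 in haemogenic over arterial ECs, -1.26 to -0.57 for sox17 in tip over arterial ECs, and -0.50 to -0.15 for sox17 in nHSPC-like over haemogenic cells. The causes were not tested. The other calls kept their direction and side of the threshold.

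With 1 library per genotype, no spread between embryos or preparations is known for the mutants, and sox17, at 9 to 48 UMIs in haemogenic ECs, is limited by counting in every class.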
